A study of Homo sapiens with 12 samples.

Results

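The comparison described here is that of total RNA, called input, from U2OS cells that stably carried eIF4E-Flag with input from U2OS cells that carried the vector alone. It rests on 6 of the 12 sequencing libraries of the series, 3 of eIF4E-Flag cells and 3 of vector cells, taken by their labels. The other 6 libraries hold RNA from a cap immunoprecipitation (Cap IP) of the same 2 kinds of cells, and they enter the fit across genes, where they share the estimate of the spread, and the reading of genes called in input. U2OS is a human osteosarcoma line, and every group in the series is this line under standard growth conditions, with no other treatment named. The labels do not say whether each stable line is a clone or a pool, nor how much eIF4E-Flag the cells make. The libraries are numbered 1 to 3 within a group. Nothing in the labels says that they came from separate cultures, so p-values measure the spread between these samples, which may be technical.

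eIF4E recognises the m7G cap of mRNAs and, with the scaffold eIF4G and the helicase eIF4A, brings the mRNA to the ribosome. It is held back by the 4E-binding proteins, and in the nucleus it takes part in the export and processing of chosen transcripts. Raised eIF4E is known from many tumours, where messages for growth, survival and invasion are among those it acts on. Input libraries read steady-state RNA levels, which are a different quantity from translation or capping.

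Input libraries held 1279340 to 1813486 counts, and 3 counts stood for 1.19 to 1.94 CPM (the usual scaling of counts to library size, here with TMM factors). Correlations of log2 CPM over genes were 0.912 to 0.924 among vector libraries and 0.893 to 0.938 among eIF4E libraries. eIF4E replicate 1 stood close to the vector libraries, with a correlation of 0.936 with vector replicate 2 and 0.893 with eIF4E replicate 3. On the first principal component of the inputs, which held 43.1% of the variance, vector replicates 1, 2 and 3 lay at -38.3, -5.17 and -43.0 and eIF4E replicates at -2.99, 26.7 and 62.7. The groups did not overlap on it, but vector replicate 2 and eIF4E replicate 1 were neighbours. The titles name vector replicate 1 and eIF4E replicate 1 with the stems C5V and C10V, and replicates 2 and 3 of both kinds of cells with C6VI and C6IV. The labels do not explain these stems. Of osteoblast and osteosarcoma markers, 7 of 21 were tested, and COL1A1, the main bone collagen, stood at 572 to 1067 CPM. Others of the list were too low to test. COL1A2 had 2 counts over the vector inputs and 0 over the eIF4E inputs, and IBSP and POSTN had 0 in both. SP7, ALPL, SPP1 and BGLAP were also untested, so this list gives only a partial check of the line. Of 13 blood cell markers 2 were tested, with PTPRC, the leukocyte common antigen, at 1 count in all over the vector inputs and 0 over the eIF4E inputs, and the whole list summed to 15.6 to 24.2 CPM of raw totals in vector and 17.2 to 23.9 in eIF4E libraries.

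The labels were read first against EIF4E itself, which encodes the factor the cells carry. EIF4E (chr4:98879276-98929133, minus strand, GRCh38) had 15, 9 and 15 counts in vector replicates 1 to 3 and 39, 27 and 23 counts in eIF4E replicates 1 to 3. That is 9.70, 4.81 and 6.32 CPM against 15.4, 13.2 and 11.9 CPM, so the groups did not overlap and each eIF4E library stood above each vector library. The difference was 0.98 ± 0.36 (log2, SE), with an adjusted p of 0.231 in edgeR's quasi-likelihood test, and it did not pass. Whether the counts include RNA of the eIF4E-Flag construct, which depends on how much of the transcript the construct shares, is not stated in the labels. Nor is it known from which strand the reads under the name EIF4E came, so this reading of the labels is uncertain. The same limit holds for the other genes named here, MYC and HOTAIR among them. Of the 16 tested genes of the list of eIF4F subunits, partners and 4E-binding proteins, none passed and 5 had an unadjusted p under 0.05, 4 of them higher, beside 13.5% of all genes tested. EIF4A1, a gene of the helicase eIF4A, had 0 counts in all 12 libraries, so its level could not be read. EIF4G1, the scaffold, stood at 298, 530 and 350 CPM in vector libraries and 528, 603 and 711 CPM in eIF4E libraries, with overlap between vector replicate 2 and eIF4E replicate 1. EIF4ENIF1, the eIF4E transporter 4E-T, had lower values in eIF4E cells, with 32.3, 48.6 and 47.6 CPM in vector and 28.9, 25.9 and 26.5 CPM in eIF4E libraries (log2 change -0.66, adjusted p = 0.303). None of the 6 tested genes of cap synthesis and nuclear cap binding passed either. Their median log2 change was 0.08, beside -0.05 over all genes tested and 0.05 over protein-coding genes.

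Few genes were called in total RNA. Of 12460 genes tested, 66 passed an adjusted p of 0.05 in edgeR's quasi-likelihood fit with Benjamini-Hochberg adjustment, which is 0.53% of them. eIF4E cells had 13 of these higher (0.104%) and 53 lower (0.425%). At an unadjusted p under 0.05 there were 1683 (13.5%). All 66 had groups without overlap, as had 18.7% of all genes tested. The count depended on single libraries. It was 13 without vector replicate 3, 7 without eIF4E replicate 2, 9 without eIF4E replicate 3 and 109 without eIF4E replicate 1, and it stayed within a factor of 1.5 of the full count without vector replicate 1 (45) or 2 (77). TGM2, CDR1, MOCS1, LINC00662 and the clone-named RP11-61I13.3 and CTC-459F4.1 passed whichever of the 6 libraries was left out. A fit of the 6 inputs alone called 18 genes, total counts as library sizes gave 11 and a filter of 50 counts in 3 libraries 32, while DESeq2 as the test gave 151 and no filter on low counts 318. No called gene changed sign under any alternative tried. In these bulk libraries, fewer cells that express a gene and less of its RNA per cell cannot be told apart.

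**Figure D1:**
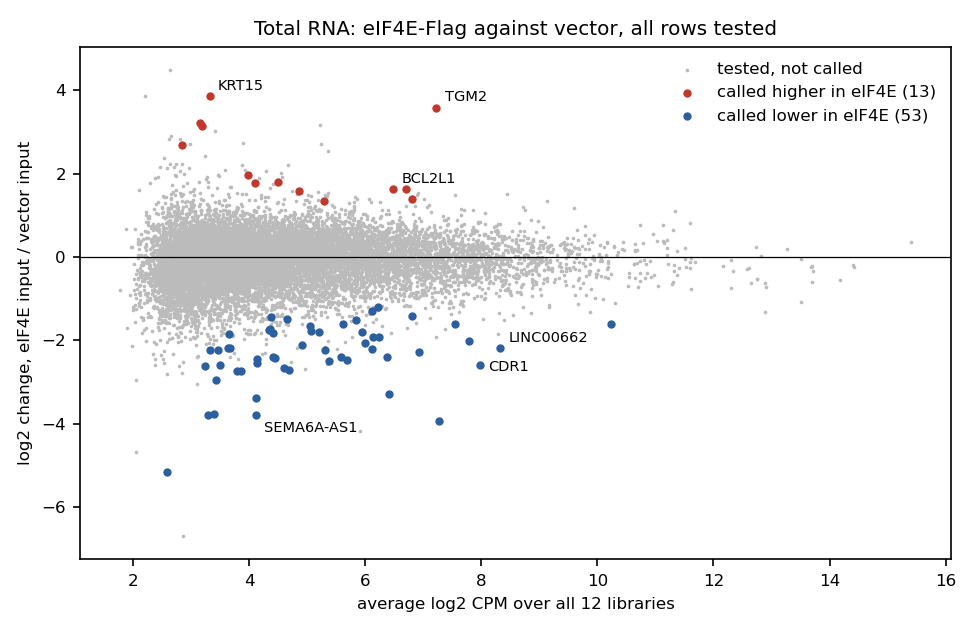
Log2 change of eIF4E over vector input against average log2 CPM over all 12 libraries, 1 point for each of the 12460 genes tested. Red points are the 13 genes called higher and blue points the 53 called lower; the blue points reach up to the level of CDR1 and beyond, and TGM2 stands apart among the abundant genes that rose.

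TGM2 had the smallest p of the genes that rose. It encodes transglutaminase 2, an enzyme that cross-links proteins in the cytoplasm and the matrix. TGM2 stood at 9.05, 50.8 and 40.5 CPM in vector replicates 1 to 3 and at 172, 457 and 590 CPM in eIF4E replicates 1 to 3. Every eIF4E library stood above every vector library, and vector replicate 1 was the lowest of all. The log2 change was 3.58 ± 0.57 (SE), a 12-fold rise, with an adjusted p of 0.00598.

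KRT15 and CGN, both genes of epithelial cells, rose with it. KRT15, a type I keratin of basal epithelium, had 0, 1.07 and 1.69 CPM in vector libraries, at or near the floor of 3 counts, and 9.49, 11.7 and 26.5 CPM in eIF4E libraries (log2 change 3.86 ± 0.66, adjusted p = 0.0118). It no longer passed without eIF4E replicate 3 (adjusted p = 0.0933). CGN, the tight-junction protein cingulin, had 5.82, 17.6 and 5.90 CPM in vector and 29.3, 34.2 and 37.9 CPM in eIF4E libraries (log2 change 1.78 ± 0.40, adjusted p = 0.0490), and its call was lost without vector replicate 1 or 3 or eIF4E replicate 2 or 3 (adjusted p up to 0.278). These are 3 of the 19 tested genes of the list of keratins and epithelial junctions, which holds 32, and none was called lower. TGM2 is in that list as an enzyme and is neither a keratin nor a junction protein. The median log2 change of the list was 0.34, with 15 of 19 above 0, as were 5803 of the 12460 genes tested. In 7 the eIF4E libraries lay wholly above the vector libraries, as in 8.45% of all genes. The 3 called genes are within both counts, and the list was chosen with earlier results of these data known. PKP3, plakophilin 3 of desmosomes, stood at 0.647, 3.74 and 1.27 CPM in vector and 5.93, 18.6 and 14.5 CPM in eIF4E libraries but did not pass (adjusted p = 0.115). The summed level of the 32 genes was 2626, 3813 and 2902 CPM of raw totals in vector and 5081, 5386 and 6515 in eIF4E libraries. This sum includes the 3 called genes, TGM2 among them. The lowest log2 change in the list was -0.66, for CGNL1. KRT5 and KRT14, which define basal epithelium, were too low to test, with 40 and 19 counts over the vector inputs and 24 and 36 over the eIF4E inputs. EPCAM, OCLN, DSP and KRT19 were also too low, with 7, 16, 6 and 0 counts over the vector inputs and 11, 11, 5 and 4 over the eIF4E inputs.

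BCL2L1 of the apoptosis list, EPHA2 of the axon guidance list and CDK6, which is in no list, also rose. BCL2L1, which encodes the anti-apoptotic BCL-xL, stood at 55.6, 60.4 and 48.9 CPM in vector and 112, 180 and 214 CPM in eIF4E libraries. The vector libraries lay close together and every eIF4E library was higher, with a log2 change of 1.62 ± 0.32 and an adjusted p of 0.0299. BCL2L1 was the only called member among the 15 tested apoptosis regulators, whose median was 0.17. Its counts may come in part from the opposite strand, where the lncRNA ABALON had means of 1033 and 2219 CPM in vector and eIF4E libraries. CFLAR, which blocks caspase 8, stood at 41.4, 69.0 and 44.7 against 64.8, 132 and 159 CPM and did not pass (adjusted p = 0.182). EPHA2, a receptor tyrosine kinase for ephrin-A ligands, stood at 78.9, 86.1 and 77.2 CPM in vector and 153, 238 and 246 CPM in eIF4E libraries (log2 change 1.39 ± 0.29, adjusted p = 0.0343). CDK6, the kinase that works with D cyclins in G1, stood at 29.1, 14.4 and 21.1 CPM against 59.3, 58.2 and 46.7 CPM (log2 change 1.35 ± 0.30, adjusted p = 0.0412). Unlike the genes above, CDK6 was lowest among eIF4E libraries in replicate 3. The calls of BCL2L1, EPHA2 and CDK6 were lost without vector replicate 3, eIF4E replicate 2 or eIF4E replicate 3. Those of BCL2L1 and EPHA2 were also lost without vector replicate 1, that of EPHA2 without vector replicate 2, and that of CDK6 without vector replicate 2 or eIF4E replicate 1, with adjusted p up to 0.183, 0.220 and 0.224.

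FAM129B, now named NIBAN2, rose as well. It stood at 71.8, 61.5 and 71.3 CPM in vector and 157, 200 and 274 CPM in eIF4E libraries (log2 change 1.63 ± 0.32, adjusted p = 0.0259, lost without any library except eIF4E replicate 1, with adjusted p up to 0.138). Its promoter is shown because it is the 1 of 6 promoters found for genes that rose that held the AP-1 motif TGANTCA, searched on both strands. The motif stood in 0 of 29 promoters of genes that fell and in 7.71% of 35116 RefSeq promoters of the same length (300 bases, 250 before to 50 after the start). The sequence is RefSeq's for GRCh38.p14, chr9:127578982-127579281 on the minus strand, with its matches in capitals.
NIBAN2 promoter: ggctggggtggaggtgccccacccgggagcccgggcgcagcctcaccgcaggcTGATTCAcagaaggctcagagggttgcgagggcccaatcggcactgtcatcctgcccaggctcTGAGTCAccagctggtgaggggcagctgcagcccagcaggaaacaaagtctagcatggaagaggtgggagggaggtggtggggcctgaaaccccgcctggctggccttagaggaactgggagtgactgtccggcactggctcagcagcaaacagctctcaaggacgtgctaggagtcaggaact
The E-box CACGTG was in 2 of the 6 and 2 of the 29 promoters and in 7.26% of all. These matches are letters in a window and describe no binding.

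COL27A1, a fibrillar collagen of cartilage, rose, and no other collagen passed. It stood at 29.1, 17.6 and 17.7 CPM in vector and 51.4, 69.9 and 69.1 CPM in eIF4E libraries (log2 change 1.57 ± 0.32, adjusted p = 0.0299), the 1 called gene among 18 tested collagens, whose median was -0.07. Its call was lost without vector replicate 2 or 3 or eIF4E replicate 2 or 3 (adjusted p up to 0.198). COL3A1, a collagen of loose connective tissue, was lower in eIF4E libraries without passing, at 15.5, 6.41 and 32.5 CPM against 6.72, 0.489 and 2.60 CPM, with overlap of vector replicate 2 and eIF4E replicate 1 (adjusted p = 0.137). C3, the central component of complement, stood at 0, 1.60 and 3.79 CPM in vector and 5.53, 24 and 28.0 CPM in eIF4E libraries (log2 change 3.21 ± 0.73, adjusted p = 0.0486). Only 12 counts over 3 vector libraries lie behind that fold, and the call held only without eIF4E replicate 1. SERPING1, the C1 inhibitor, stood at 8.40, 10.7 and 19.0 against 2.77, 4.4 and 5.19 CPM and did not pass (adjusted p = 0.169). The remaining named genes that rose are pseudogenes. RPL13AP20, a copy of the ribosomal protein gene RPL13A, stood at 0.647, 4.28 and 0.422 against 7.51, 21.0 and 19.7 CPM, lost its call without vector replicate 1 or 3 or eIF4E replicate 2 or 3, and 10.8% of its 75-base windows also occur in RPL13A, so its level is uncertain. IMPDH1P4, a copy of IMPDH1, stood at 12.9, 6.95 and 11.8 against 45.5, 33.2 and 30.6 CPM (log2 change 1.79 ± 0.38, adjusted p = 0.0370) and lost its call without any 1 of the 6 libraries.

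**Figure D2:**
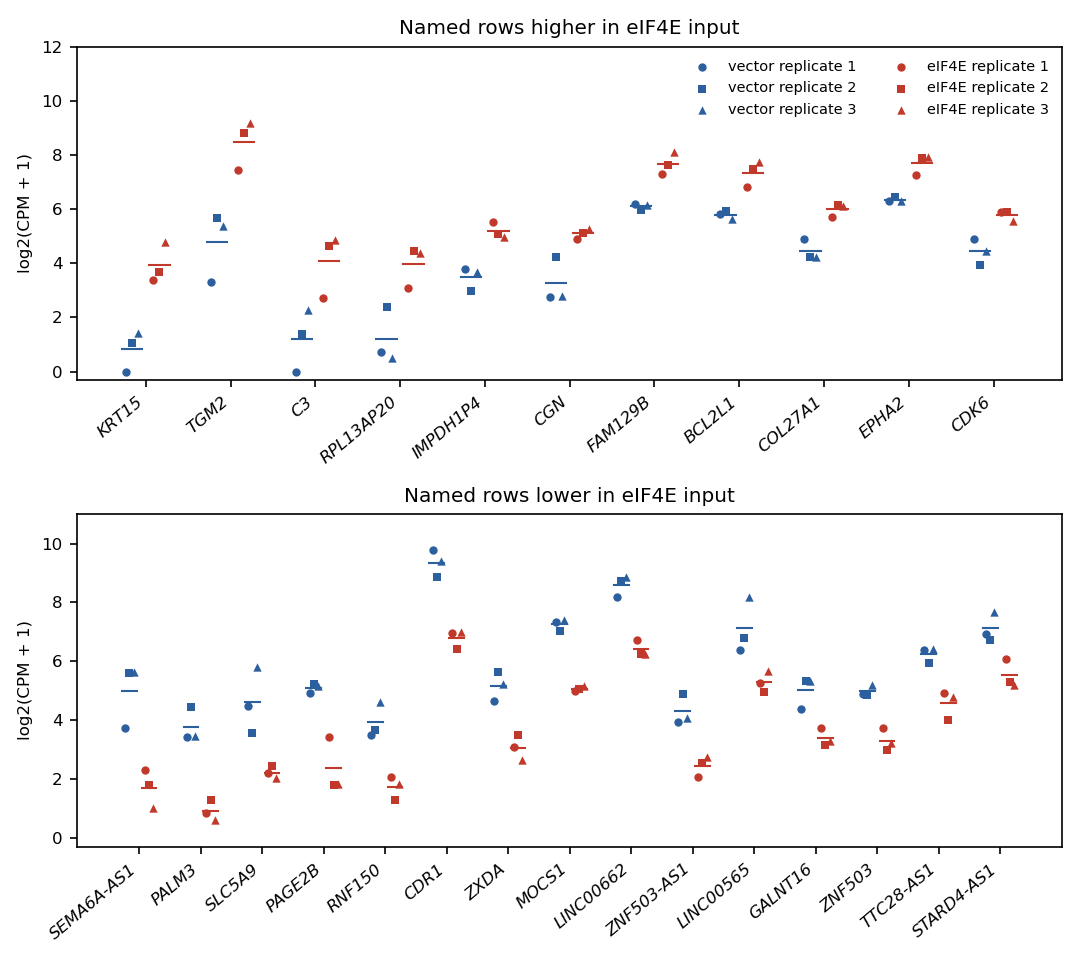
Level of each named gene in every input library as log2(CPM + 1), with vector libraries in blue, eIF4E libraries in red, a symbol for each replicate and a line at the group mean. The groups do not overlap for any of the genes drawn; TGM2 spans 9.05 to 590 CPM and CDR1 spans 85.1 to 875 CPM.

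CDR1 had the smallest p of the named genes that fell. It stood at 875, 468 and 675 CPM in vector replicates 1 to 3 and at 123, 85.1 and 126 CPM in eIF4E replicates 1 to 3. All eIF4E libraries lay far below the lowest vector library, and the log2 change was -2.60 ± 0.29 with an adjusted p of 0.000119, a 6.05-fold fall that passed whichever library was left out. The CDR1 gene is a single exon of 789 bases (chrX:140783578-140784366, minus strand). The opposite strand of this exon lies within LINC00632 and is known as the source of CDR1as, a circular RNA that binds the microRNA miR-7. The sources used here give no strand setting for featureCounts, so reads of CDR1 and of its opposite strand cannot be told apart, and no value is given for the circular RNA. The row of LINC00632 itself held 0 to 3 counts per input library.

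The sequence is shown because it carries the sites for which the locus is known. The mature miR-7-5p (RefSeq, GRCh38.p14), with its seed, bases 2 to 8, in capitals, reads as follows, and under it stand 300 bases of the plus strand of the CDR1 exon (chrX:140784038-140784337, GRCh38), with each match to the seed, GTCTTCC, in capitals.
miR-7-5p: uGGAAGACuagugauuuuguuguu
CDR1 exon, plus strand: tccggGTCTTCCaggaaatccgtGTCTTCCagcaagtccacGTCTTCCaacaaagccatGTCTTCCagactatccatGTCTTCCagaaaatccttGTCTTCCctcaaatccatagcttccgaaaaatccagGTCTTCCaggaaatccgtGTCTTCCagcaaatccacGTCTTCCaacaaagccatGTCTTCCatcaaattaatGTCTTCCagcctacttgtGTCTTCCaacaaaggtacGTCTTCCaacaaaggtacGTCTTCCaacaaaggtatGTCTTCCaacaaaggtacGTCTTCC
This stretch holds 16 matches. The whole exon holds 38 on the plus strand and 0 on the strand of CDR1. Of 149557 annotated transcripts of at least 789 bases, 6.94% have at least 1 match in their leading 789 bases and 0 have as many as 38.

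MOCS1, which encodes the enzyme of the opening step of molybdenum cofactor synthesis, fell with its overlapping neighbour DAAM2. MOCS1 stood at 162, 129 and 167 CPM in vector and at 30.8, 32.3 and 34.8 CPM in eIF4E libraries with eIF4E libraries close together and a log2 change of -2.22 ± 0.26 and an adjusted p of 0.000142. DAAM2, a formin of Wnt signalling on the other strand, stood at 169, 130 and 146 against 68.0, 55.2 and 70.6 CPM (log2 change -1.20 ± 0.26, adjusted p = 0.0374). The annotated genes overlap on chromosome 6, so whether some reads of one were counted for the other cannot be told apart with the strand setting not given. The call of MOCS1 held without any 1 library, and that of DAAM2 was lost without any library except vector replicate 2.

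Genes on the X chromosome made up 5 of the 45 called genes that could be placed, 5 of 269 tested there (1.86%), beside 0.53% of all genes tested, and chromosomes 6 and 12 also had 5 each (1.03% and 0.924%). The 0.53% includes 2340 tested genes that could not be placed, of which 0.897% were called. These are few genes, and no excess on a chromosome was tested. The called genes on X were IMPDH1P4, higher, and CDR1, PAGE2B, ZXDA and ZXDB, lower. PAGE2B, of a family expressed in testis and tumours, stood at 29.1, 36.4 and 35.0 CPM in vector and 9.88, 2.44 and 2.60 CPM in eIF4E libraries (log2 change -2.68 ± 0.42, adjusted p = 0.00598). eIF4E replicate 1 was the nearest to the vector libraries, and the call was lost without eIF4E replicate 2 or 3 (adjusted p up to 0.0661). PAGE2, its near copy, which shares 28.3% of the 75-base windows of PAGE2B, was lower too without passing, at 20.7, 19.2 and 16.4 against 9.88, 7.82 and 6.75 CPM (adjusted p = 0.137). The median of the 11 tested cancer-testis antigens was 0.24, and PAGE2B was the 1 called. ZXDA and ZXDB, zinc finger genes of near-identical sequence 307953 bases apart, both fell. ZXDA stood at 23.9, 48.6 and 36.7 against 7.51, 10.3 and 5.19 CPM (log2 change -2.24 ± 0.43, adjusted p = 0.0259), and ZXDB, named here after its values were seen, at 56.9, 41.2 and 25.7 against 15.4, 9.29 and 9.86 CPM (adjusted p = 0.0401). Both calls were lost without vector replicate 2 or eIF4E replicate 2 or 3, that of ZXDA also without vector replicate 3 and that of ZXDB also without vector replicate 1. As 18.7% of the windows of ZXDA occur in ZXDB, the split between them is uncertain.

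The called genes classed as long noncoding RNAs (lncRNAs) were all lower. Of 577 tested lncRNAs, 14 were called (2.43%), beside 29 of 9239 protein-coding genes (0.314%), of which 9 were higher and 20 lower. The classes are those of the names. With the strand setting of the counting not given, counts under a lncRNA name may be reads of a gene on the other strand. AGAP2-AS1, among the 14, shares 91.6% of its 75-base windows with OS9. The median log2 change was -0.37 over lncRNAs and 0.05 over protein-coding genes, and -0.35 over the 2202 tested clone-named genes, of which 19 were called lower and 2 higher. Over all counts, protein-coding genes held 55.6%, 57.8% and 56.3% in vector and 63.3%, 61.8% and 59.8% in eIF4E libraries, and clone-named genes 34.0%, 32.8% and 32.7% against 28.3%, 29.5% and 31.4%. Neither of these shares overlapped between the groups. That of lncRNAs did, at 5.37%, 6.10% and 7.11% in vector and 5.20%, 5.13% and 5.42% in eIF4E libraries. Tested pseudogenes and small and other RNAs had medians of -0.41 each, with 2 of 236 and 0 of 68 called. The part of library composition or RNA quality in the gene-level differences was not tested.

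LINC00662, an intergenic lncRNA of chromosome 19, passed whichever library was left out. So did CDR1, which the annotation classes as a lncRNA and which is counted with the called lncRNAs. LINC00662 stood at 290, 422 and 469 CPM in vector and at 106, 75.8 and 75.8 CPM in eIF4E libraries (log2 change -2.20 ± 0.31, adjusted p = 0.00129). SEMA6A-AS1, antisense to the axon guidance ligand gene SEMA6A, stood at 12.3, 48.1 and 48.5 against 3.95, 2.44 and 1.04 CPM (log2 change -3.79 ± 0.61, adjusted p = 0.00598), the largest fall among the named genes, and passed except without eIF4E replicate 2 or 3 (adjusted p up to 0.0869). HOTAIR, the lncRNA of the HOXC cluster, stood at 22.0, 9.62 and 14.8 against 4.35, 0.978 and 2.08 CPM (log2 change -2.54 ± 0.56, adjusted p = 0.0419). It was the 1 called of 24 tested HOX genes and HOX lncRNAs, whose median was -0.41. Within that list HOXB3, HOXB6 and HOXB9, homeobox transcription factors of the HOXB cluster, had higher means in eIF4E cells without passing, with HOXB6 at 4.53, 3.74 and 2.95 against 8.70, 9.29 and 9.86 CPM. HOTAIR was no longer called without vector replicate 1 or 3 or eIF4E replicate 2 or 3 (adjusted p up to 0.235).

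Further antisense and intergenic RNAs were named by rank among the genes called lower, so their direction was fixed by that rule. LINC00565 stood at 82.8, 111 and 292 against 37.2, 29.8 and 49.3 CPM, with vector replicate 3 well above the rest. STARD4-AS1, antisense to a cholesterol transporter gene, stood at 122, 105 and 205 against 67.2, 38.6 and 35.8 CPM. TTC28-AS1 stood at 82.8, 60.9 and 83.5 against 29.7, 15.2 and 26.5 CPM. All of these groups were apart, with eIF4E replicate 2 or 3 the lowest library, and log2 changes of -2.07 ± 0.40, -1.60 ± 0.32 and -1.66 ± 0.33 (adjusted p = 0.0259, 0.0299 and 0.0299). ZNF503-AS1 and ZNF503, a zinc finger repressor gene 24330 bases away, fell together. ZNF503-AS1 stood at 14.2, 28.9 and 16 against 3.16, 4.89 and 5.71 CPM. ZNF503 stood at 28.4, 27.8 and 35.8 against 12.3, 6.84 and 8.31 CPM, and its log2 change of -1.73 ± 0.35 had an adjusted p of 0.0303. Each of these 5 calls was lost without eIF4E replicate 2 or 3, with adjusted p up to 0.224. Those of LINC00565, STARD4-AS1, TTC28-AS1 and ZNF503 were also lost without vector replicate 3, those of TTC28-AS1 and ZNF503 without vector replicate 1, and that of ZNF503-AS1 without vector replicate 2 or eIF4E replicate 1.

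Coding genes that fell had varied roles. PALM3, of the paralemmin family of membrane proteins, stood at 9.70, 20.8 and 10.1 CPM in vector and 0.791, 1.47 and 0.519 CPM in eIF4E libraries, all at or under the floor of 3 counts there (log2 change -3.76 ± 0.65, adjusted p = 0.0118). SLC5A9, a sodium-coupled sugar transporter, stood at 21.3, 10.7 and 54.4 against 3.56, 4.4 and 3.12 CPM (log2 change -2.95 ± 0.58, adjusted p = 0.0259). RNF150, a RING finger protein, stood at 10.3, 11.8 and 23.6 against 3.16, 1.47 and 2.60 CPM (log2 change -2.62 ± 0.51, adjusted p = 0.0259). In both, vector replicate 3 was the highest library, and the calls were lost without it. GALNT16, which starts mucin-type O-glycans, stood at 20.0, 39.6 and 38.8 against 12.3, 7.82 and 8.83 CPM (adjusted p = 0.0303). PKIB, which encodes a peptide inhibitor of the kinase PKA, fell from 12.3, 12.8 and 24.5 CPM to 3.16, 0.489 and 3.63 CPM (log2 change -2.73 ± 0.58, adjusted p = 0.0370), the 1 called of 18 tested genes of protein kinase A signalling, whose median was 0.19. LTBP1, which tethers latent TGF-beta in the matrix, stood at 23.3, 21.9 and 38.8 against 10.3, 4.89 and 2.60 CPM (log2 change -2.20 ± 0.47, adjusted p = 0.0374), the 1 called of 18 tested matrix glycoproteins and proteoglycans (median -0.41). AGRN and HSPG2, heparan sulfate proteoglycans of basement membranes, had higher means in eIF4E cells in that list. HSPG2 stood at 189, 219 and 239 against 376, 348 and 477 CPM but did not pass (adjusted p = 0.162). Without eIF4E replicate 2 or 3 the calls of PALM3, SLC5A9, RNF150, GALNT16, PKIB and LTBP1 were lost, and without vector replicate 3 all of these except PALM3. GALNT16 was also lost without vector replicate 2, PKIB without eIF4E replicate 1 and LTBP1 without vector replicate 1. Called genes outside the naming rule, picked after their values were seen, include ITPR1, an intracellular calcium channel, DACT1, a Wnt pathway inhibitor, and PTPRB, a receptor phosphatase of vessels, all lower.

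Tested genes opposite to called genes had the sign of the called gene, some of them by less than their SE. Of 5183 tested genes with exons opposite to another gene, 30 were called (0.579%), beside 15 of 4937 without such exons (0.304%) and 21 of 2340 that could not be placed (0.897%). For 14 called genes the opposite gene was tested, in 16 pairings that list MOCS1 and DAAM2 both ways, and the opposite gene had the sign of the called gene in 16 of 16. PITPNB, PPP3CB and RPRD1B lay within their SE of 0 (log2 change -0.03 ± 0.41, -0.20 ± 0.43 and 0.22 ± 0.35), so their sign says little. How often opposite genes share a sign over all genes tested was not computed. Only MOCS1 and DAAM2 were called on both strands. ABALON, a lncRNA opposite BCL2L1, stood at 911, 1162 and 1025 CPM in vector and 1335, 2185 and 3138 CPM in eIF4E libraries (log2 change 1.10 ± 0.33, adjusted p = 0.143). SEMA6A stood at 32.3, 39.0 and 46.0 against 29.6, 12.7 and 9.35 CPM (adjusted p = 0.182). LOXL1, a lysyl oxidase that cross-links elastin, stood at 98.3, 110 and 172 against 45.5, 54.7 and 68.0 CPM (adjusted p = 0.0919) under its called antisense partner LOXL1-AS1. RPRD1B, opposite TGM2, did not follow it in size, at 8.40, 15 and 12.2 against 12.3, 14.7 and 15.1 CPM. Over 411 pairs of a gene and its AS1 partner with at least 60 input counts, 225 (54.7%) had more counts under the antisense name. VIM-AS1 held 66120 counts over the 6 inputs and VIM, the intermediate filament vimentin and a main mesenchymal message, held 9319. MIF-AS1 held 49938 and MIF 985, while ENO1-AS1 held 89 and ENO1 10217. Whether reads were counted for the reverse strand was not tested. The library kit marks strand, and with the counting setting not given, which strand a count came from cannot be told apart. This holds for sense names as well as antisense names, since counts under a gene's name may come from the opposite strand, as for BCL2L1 with means of 55.0 and 169 CPM beside ABALON with 1033 and 2219 CPM in vector and eIF4E libraries.

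**Figure D3:**
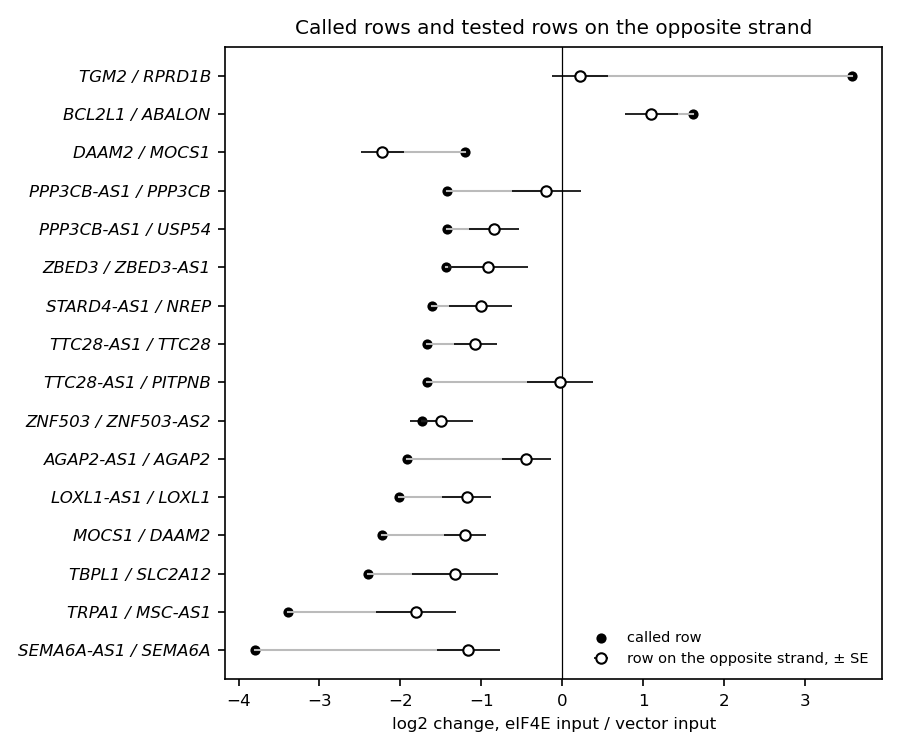
Log2 change of eIF4E over vector input for called genes (filled) and for tested genes with exons on the opposite strand (open, with the SE). All 16 open points lie on the same side of 0 as their filled partner, and TGM2 with RPRD1B and SEMA6A-AS1 with SEMA6A are the pairs farthest apart.

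Gene lists for the pathways of this factor and this line mostly held no called gene. None of 22 tested p53 targets passed, although 19 had a positive log2 change, the median was 0.56 and 8 had an unadjusted p under 0.05, all higher, as had 663 of the 12460 genes tested. GDF15, a secreted stress factor, stood at 1.29, 7.48 and 4.22 CPM in vector and 6.33, 27.9 and 23.4 CPM in eIF4E libraries, with overlap of vector replicate 2 and eIF4E replicate 1 (adjusted p = 0.137). FDXR, a mitochondrial reductase, stood at 31.7, 39.0 and 21.1 against 50.2, 63.5 and 70.1 CPM without overlap (adjusted p = 0.145). The list's summed level was 707 to 856 CPM of raw totals in vector and 1056 to 1310 in eIF4E libraries. Of 11 tested NF-kB genes none passed, with a median of 0.58. NFKB2, a subunit of the non-canonical arm, stood at 16.2, 32.6 and 35.0 against 45.5, 60.1 and 74.8 CPM (adjusted p = 0.159).

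Metabolic lists were likewise above the median of all genes (-0.05) and that of protein-coding genes (0.05), with no member called. Cholesterol synthesis had a median of 0.65 over 19 tested genes and glycolysis 0.46 over 19. SLC2A1, the glucose transporter GLUT1, stood at 42.7, 46.5 and 53.1 CPM in vector and 67.6, 99.7 and 114 CPM in eIF4E libraries (adjusted p = 0.137). In 13 of 36 tested genes of the spliceosome core the eIF4E libraries lay wholly above the vector libraries, and in 1 below, where over all genes tested 8.45% lay above and 10.2% below, with a median of 0.42 and none called. Groups free of overlap in these lists were 21.1% of glycolysis, 10.5% of cholesterol synthesis and 38.9% of spliceosome genes, beside 18.7% of all.

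Of 19 tested messages reported as eIF4E targets in growth and invasion, none passed and the median was 0.09. MYC, the growth transcription factor, stood at 29.1, 48.1 and 24.9 CPM in vector and 41.5, 81.6 and 84.6 CPM in eIF4E libraries, with overlap of vector replicate 2 and eIF4E replicate 1 (adjusted p = 0.169). FGF2, a fibroblast growth factor, had lower values, at 40.1, 67.9 and 48.1 against 25.7, 24 and 36.3 CPM (adjusted p = 0.254). MMP3, a matrix protease, was too low to test, with 4 counts over the vector inputs and 40 over the eIF4E inputs. Ribosomal protein messages had a median of 0.20 over 75 tested genes, mitosis genes 0.09 over 28 and replication genes 0.22 over 35, with none called. Replication-dependent histones had a median of -0.44 over 21 tested genes and mitochondrially encoded mRNAs -0.21 over 13, with none called. Under total counts as library sizes the median of all genes tested turned from -0.05 to 0.01, and no list median changed sign under another scaling.

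**Figure D4:**
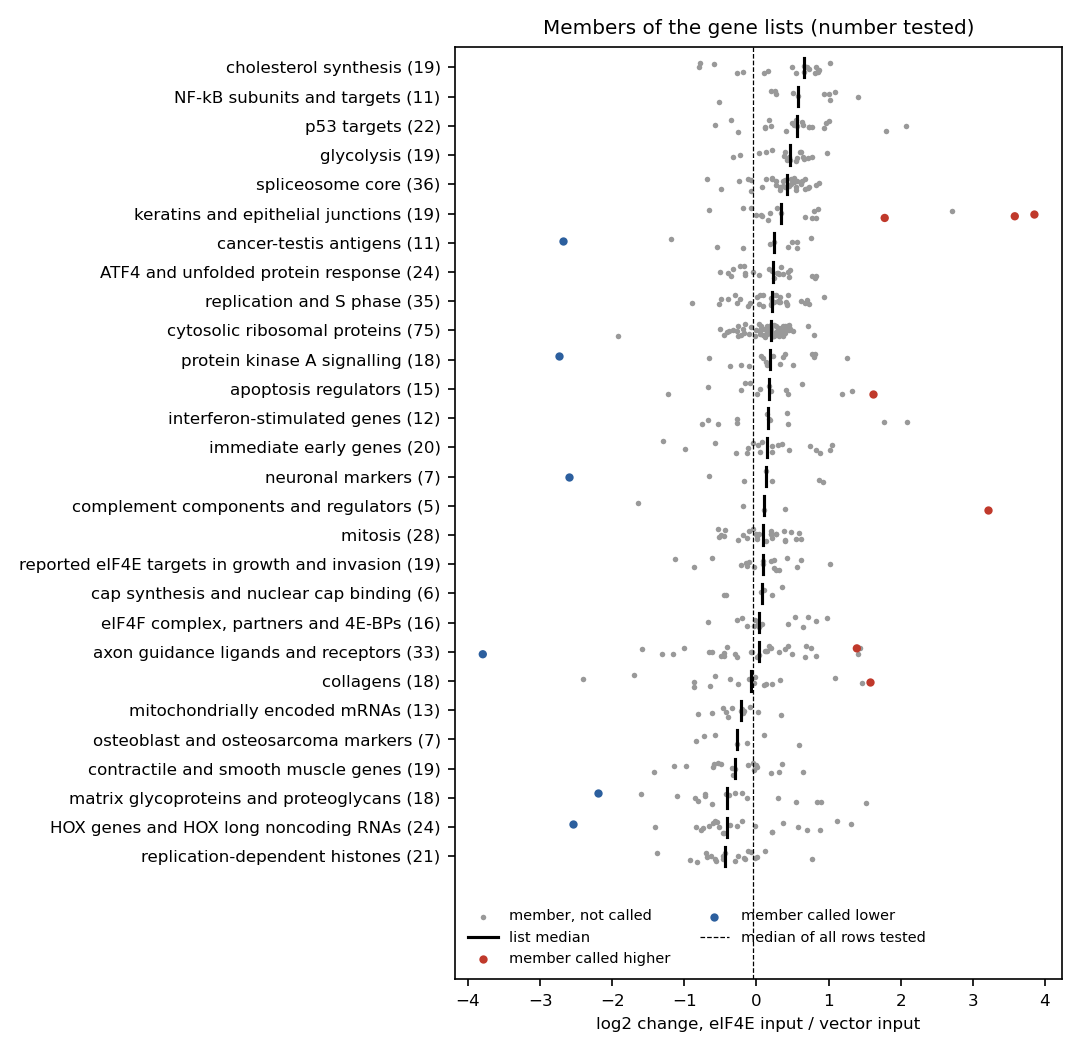
Log2 change of eIF4E over vector input for each tested gene of the lists with at least 5 tested genes, with a bar at the list median, red and blue points for genes called higher and lower, and a dashed line at the median of all 12460 genes (-0.05). Cholesterol synthesis, NF-kB and p53 lists have the highest medians with no called gene, and KRT15, TGM2 and CGN are the red points of the keratin and junction list.

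The genes called in input were then read in the Cap IP libraries, which are other libraries that share the title stems of the inputs. The labels do not say whether they come from the same cultures as the inputs. A shared sign may therefore repeat differences between samples and is no independent repeat. The Cap IP libraries also share the estimate of the spread by which the 66 genes were called. Of the 66 genes, 65 had the same sign in eIF4E against vector Cap IP, beside 56.5% of all genes tested, and ITFG1-AS1 was the exception (log2 change 0.05). The Cap IP contrast called 28 genes (0.225%) in edgeR's test, and 15 were called in both, 2 higher and 13 lower, which is 22.7% of the input calls and 53.6% of the Cap IP calls. At an unadjusted p under 0.05 in Cap IP there were 52 of the 66, beside 9.20% of all genes. TGM2 had a log2 change of 2.62 in Cap IP (adjusted p = 0.0647), CDR1 of -1.16 (adjusted p = 0.126), MOCS1 of -1.40 (adjusted p = 0.0340) and LINC00662 of -1.62 (adjusted p = 0.0232). COL27A1 and IMPDH1P4 were the genes called higher in both, with log2 changes of 2.5 and 2.58 in Cap IP (adjusted p = 0.0232 for each). In 51 of the 66 the Cap IP difference was smaller in size than the input difference. A test of the difference between the contrasts called 0 genes in edgeR (smallest adjusted p = 0.833), with 728 of 12460 and 15 of the 66 at an unadjusted p under 0.05. The genes were chosen by their input values, which are in that test, so no direction is read from it.

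**Figure D5:**
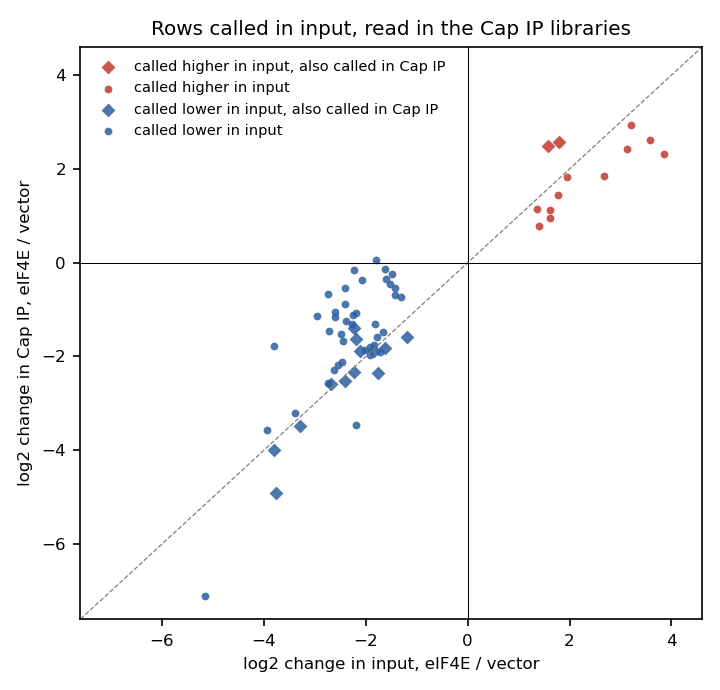
Log2 change of eIF4E over vector in Cap IP against that in input for the 66 genes called in input, with diamonds for the 15 also called in Cap IP and a dashed line of equal change. Of these 66 points, 65 have the same sign on both axes.

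The order of libraries within the called genes was also read. In 41 of the 66, eIF4E replicate 1 was the eIF4E library nearest to the vector group, in 18 replicate 3 and in 7 replicate 2. Among the 2325 genes without overlap eIF4E replicate 1 was nearest in 54.5%. Vector replicate 2 was the vector library nearest to the eIF4E group in 36 of the 66 and in 52.6% of the 2325. TGM2, CGN and BCL2L1 had this order, with eIF4E replicate 1 the lowest eIF4E library and vector replicate 2 the highest vector library. Of 45 called genes with annotated transcripts, 34 shared under 1% of their 75-base windows with another gene, and AGAP2-AS1, picked after its values were seen, shared 91.6% with OS9, so its fall is uncertain.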

How the data were processed

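The submitters' processing notes name STAR 2.5.1b, genome build GRCh38.p5, featureCounts 1.4.5-p1 and DESeq2. Per the labels' protocols, libraries were made with a KAPA RNA HyperPrep kit with RiboErase, which marks strand, and read single-end on an Illumina sequencer. The deposited values are the authors' raw counts per gene name, 58684 names in 12 libraries. The sources used here give neither the strand setting nor the annotation of the counting. Of these names, 24985 had no counts in any library.

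The tests ran in edgeR 4.0.16 with limma 3.58.1 under R 4.3.3. filterByExpr left 12460 genes, scaled with TMM and fitted by edgeR's quasi-likelihood method with a mean for each of 4 groups of 3 libraries over all 12, so that Cap IP libraries share the estimate of the spread (8 residual degrees of freedom, common dispersion 0.0883). A call needs an adjusted p (Benjamini-Hochberg) below 0.05. Errors are standard errors of the log2 change. CPM uses TMM library sizes, and summed levels of lists use raw totals. Input totals ran from 1279340 to 1813486 counts, so 3 counts are 1.19 to 1.94 CPM, and this depth limits precision. Replicates differed by more than sampling noise (chi-square per degree of freedom 5.18 to 11.4).

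Named genes were EIF4E, then up to 15 called genes per direction with the smallest p, a symbol that is no clone name, an average log2 CPM of at least 1 and groups without overlap, and up to 4 genes with the smallest p in each described list. Opposite-strand partners could be named beside them. The 30 lists and these rules were chosen with earlier results of these data known. Positions and classes are those of GENCODE release 44 on GRCh38, matched by symbol (33465) or older symbol (1660), with 23559 names, holding 32.2% of input counts, not matched. The procedure was tested on simulated data of this comparison with 12460 genes, 100 changed 2-fold and 100 changed 4-fold. It recovered 12% and 81% of these and made 7 false calls. Counts were drawn independently with the spread set by its trend over expression level. The simulation held no gene-specific spread and no differences between replicates shared by many genes, so its figures may not hold for the real libraries. Alternatives were DESeq2 1.42.0 as the test or for size factors, other library sizes and filters, only the inputs, a block for the title tag and each library left out. Python 3.11.15, pandas 2.3.3, NumPy 2.4.6 and matplotlib 3.10.9 were used.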

Additional observations from a re-analysis of the deposited data

How the results depend on the processing

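Beside 66 calls (13 higher, 53 lower) of edgeR's test, DESeq2 as the test gave 151 (45 and 106), no filter on low counts 318 (137 and 181), a filter of 50 counts in 3 libraries 32 (6 and 26), total counts as library sizes 11 (3 and 8) and a fit of the 6 inputs alone 18 (4 and 14). Only genes without opposite-strand exons gave 12 calls. Leaving out 1 library gave 7 to 109 calls (1 to 40 higher, 5 to 69 lower). DESeq2 size factors gave 66, library sizes without the 20 most abundant genes 65 and, chosen after seeing the data, libraries with C6 stems alone 54 (13 and 41). The cause of these moves was not tested, except that a stricter filter and rows without opposite exons leave fewer genes to test. With the title tag as a replicate block there were 282 calls (97 and 185), with all 66 among them. Residuals of libraries with the same tag correlated at 0.18, 0.01 and -0.04. Correlations across different tags were not computed, so whether the tags pair the libraries was not tested. EIF4E kept its sign and its side of the threshold in all alternatives that were run, with log2 changes of 0.79 to 1.27 and adjusted p of 0.177 to 0.557. With it too low for the 50-count filter, no value was had there. Of the genes called in input, 65 had the same sign in Cap IP under each alternative, except 39 of the 40 that the 50-count filter left. Of the 26 named genes, 18 lost their call with total counts as library sizes and 15 in the fit of the inputs alone, and none changed direction. In simulated data of this depth, with the spread set by its trend and no differences between replicates shared by many genes, 12% of 2-fold changes were called.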
